A study of Rattus norvegicus with 8 samples.

Results

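The 8 genes described here encode the tissue inhibitors of metalloproteinases Timp1, Timp2, Timp3 and Timp4, the plasminogen activators Plat and Plau, the urokinase receptor Plaur and the activator inhibitor Serpinb2. They are 8 of 14506 genes read by single-channel Affymetrix arrays in total RNA of perfused livers from male Wistar rats aged 6 to 10 weeks, an outbred strain with no altered allele named. In 4 samples the isolated liver had received a normoosmotic Krebs-Henseleit buffer of 305 mosm/L and in 4 a hypoosmotic one of 225 mosm/L, and all 8 are labelled 120 min. The perfused organ has no blood supply of its own during the experiment, and the labels leave it unsaid whether each sample is a different rat. Spread between samples, the base of all p-values here, may therefore be technical in part. Members were found by name, and where a gene has several probe sets the one selected on the highest mean over the 8 arrays would stand for it, but each of the 8 has exactly 1. The list was drawn up with the log2 changes of the same contrast known, Serpinb2 and Timp3 being among the largest rises, so it was in part chosen by these values. The changes below therefore describe these genes, and their adjusted p-values are not independent evidence.

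Timp proteins sit in the active site of matrix metalloproteinases and so limit the breakdown of collagen and other matrix. Timp3 differs from its relatives in binding tightly to the matrix and in blocking several membrane-bound Adam proteases as well. Plat and Plau cut the liver-made zymogen plasminogen to plasmin, which dissolves fibrin and can activate metalloproteinases. Plaur holds Plau at the cell surface, and Serpinb2, also called PAI-2, is a mostly intracellular serpin that inhibits both activators. In injured liver, activated stellate cells are a known source of Timp1, and it also belongs to the acute phase genes of hepatocytes.

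Values are deposited log2 expression values, so a difference of 1 is a doubling, and changes are hypoosmotic minus normoosmotic. An array has no read depth. The number of arrays limits the precision, and no detection call was used, so a dim value can be background. Levels of different probe sets are not compared. The labelled tissue carried its markers: the 10 hepatocyte markers averaged 11.81 to 11.84 per array in normoosmotic and 11.71 to 11.82 in hypoosmotic samples, with albumin, Alb, at 13.07 ± 0.01 (SD, n = 4) in the normoosmotic group. Of all genes, 1.98% were called in either direction at a Benjamini-Hochberg adjusted p under 0.05 (limma, a linear model fitted to every gene), 0.558% higher and 1.42% lower, and in 8.27% the groups did not overlap. That is 287 calls. Refitting with 1 array left out gave 117, 232, 108 and 254 calls in all for normoosmotic replicates 1 to 4. For hypoosmotic replicates 1 to 4 it gave 155, 81, 156 and 365.

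Hypoosmotic livers carried more Timp3, Timp1 and Serpinb2 RNA. Timp3 was 2.77-fold higher, Timp1 1.94-fold and Serpinb2 2.92-fold, while Timp2, Timp4 and Plat had changes within 0.18 log2 units of 0. Plaur lay lower in all 4 hypoosmotic samples and Plau higher on average, and neither passed the test. In all, 3 of the 8 members were called higher and 0 lower, and 3 of 8 had groups that did not overlap (Timp3, Serpinb2 and Plaur). The median change of the 8 was 0.37, against 0.04 over all genes. These counts follow from how the members were chosen and nothing is read from them.

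**Figure D1:**
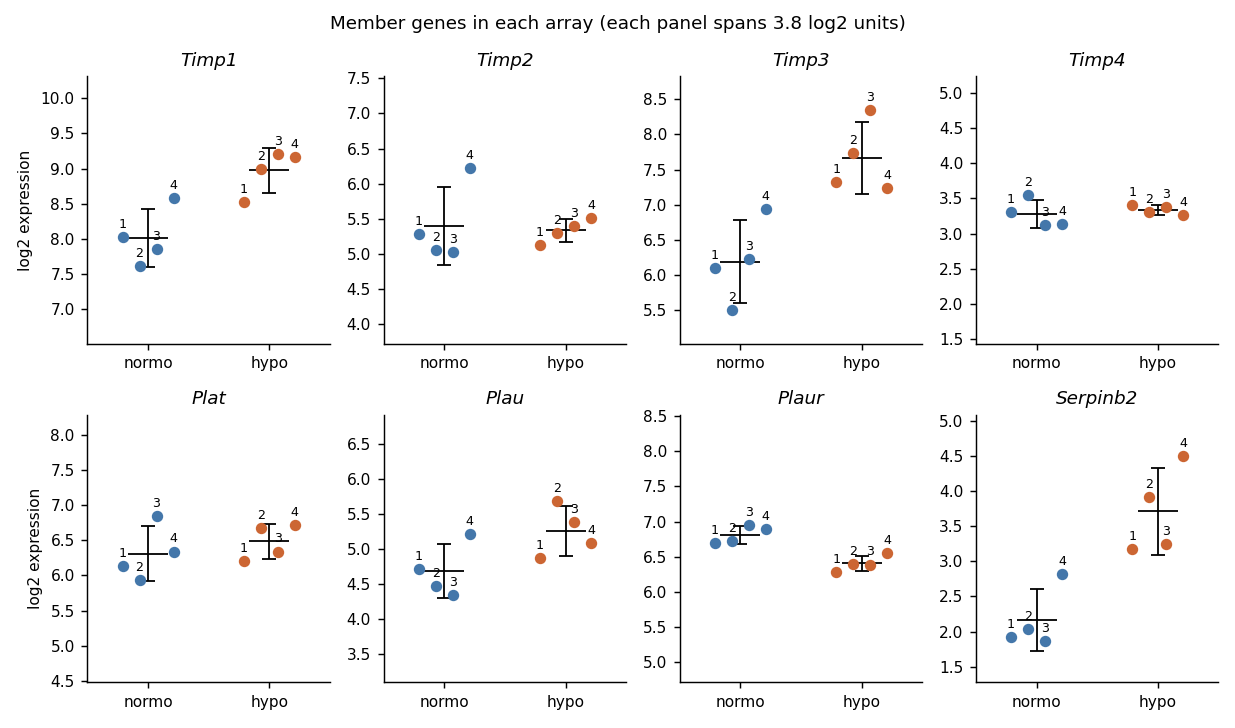
Log2 expression (y axis) of each of the 8 genes in the 4 normoosmotic (blue) and 4 hypoosmotic (orange) arrays; numbers are replicate numbers, the bar is the mean and the whiskers 1 SD. The hypoosmotic points of Timp3 and Serpinb2 all lie above the normoosmotic ones, those of Plaur all below, and normoosmotic replicate 4 is the highest of its group in 5 panels.

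Timp3 (probe set 10901231) read 6.10, 5.50, 6.23 and 6.94 in normoosmotic replicates 1 to 4 and 7.32, 7.74, 8.35 and 7.24 in hypoosmotic replicates 1 to 4. Every hypoosmotic value was above every normoosmotic one, with a gap of 0.30 between the nearest samples, hypoosmotic and normoosmotic replicate 4. The means were 6.19 ± 0.59 and 7.66 ± 0.51 (SD, n = 4 each). They differ by 1.47 ± 0.28 (SE), with a 95% interval of 0.86 to 2.08, or 1.82- to 4.22-fold (limma, adjusted p = 0.0196 over all genes). The change was between 1.24 and 1.72 when any 1 array was left out. The call was lost without normoosmotic replicate 1 (adjusted p = 0.0590) or 3 (0.0529), on dropping hypoosmotic replicate 2 (0.0721) or 3 (0.0538), with a trended and robust prior (0.0541) and with a clock gene score (Bmal1 and Npas2 averaged, less the average of Dbp and Per3) as a covariate (0.0514).

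Timp1 (probe set 10936482), an inhibitor of most secreted metalloproteinases, read 8.02, 7.61, 7.86 and 8.58 in normoosmotic and 8.52, 9.0, 9.21 and 9.17 in hypoosmotic samples. The groups met at a single pair: normoosmotic replicate 4 was 0.06 above hypoosmotic replicate 1, and the other hypoosmotic values were all higher. Timp1 rose by 0.96 ± 0.20 (SE), with an interval of 0.52 to 1.39 (limma, adjusted p = 0.0282). This was the least stable of the 3 calls. It was lost with the clock covariate (adjusted p = 0.0749), without normoosmotic replicate 1 (0.0747), 2 (0.0672) or 3 (0.0858), and without hypoosmotic replicate 2 (0.0941), 3 (0.0890) or 4 (0.0564), while the change itself stayed between 0.82 and 1.14 in the alternatives run.

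Timp2, which takes part in the activation of Mmp2 at the cell surface as well as in inhibition, had 5.29, 5.05, 5.03 and 6.22 in the normoosmotic and 5.13, 5.30, 5.40 and 5.51 in the hypoosmotic samples. Normoosmotic replicate 4 was the highest of all 8, and the groups overlapped throughout. The change was −0.06 with an interval of −0.54 to 0.41 (limma, adjusted p = 0.936), and 0.21 without that array. Timp4, in many tissues the Timp with the narrowest expression, was dim and flat at 3.31, 3.55, 3.12 and 3.13 against 3.40, 3.30, 3.38 and 3.26. Its change was 0.06 with an interval of −0.20 to 0.32, and −0.01 after quantile normalization. For Timp2 the interval includes rises of up to 1.33-fold and for Timp4 up to 1.25-fold.

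**Figure D2:**
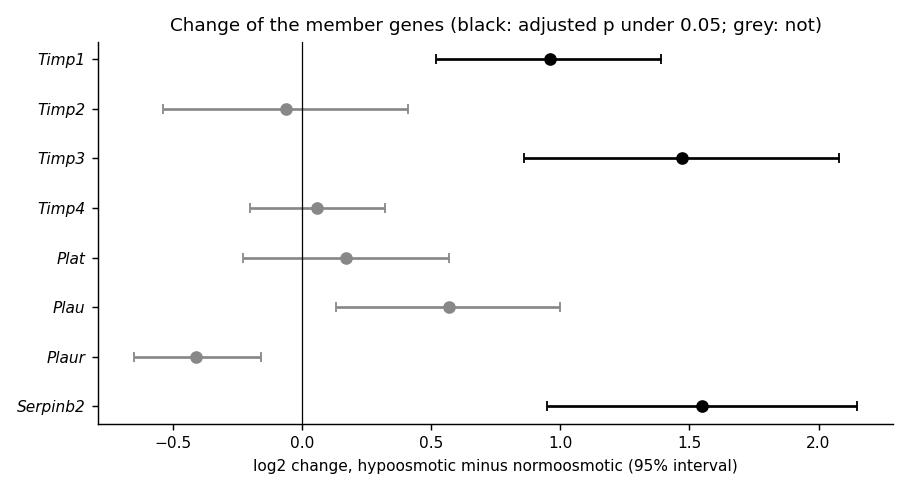
Log2 change of each gene, hypoosmotic minus normoosmotic (x axis), with its 95% interval from limma; 4 arrays per group. The intervals of Timp1, Timp3 and Serpinb2 lie above 0.5, that of Plaur runs from −0.65 to −0.16, and those of Timp2, Timp4 and Plat include 0.

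Within an array, the Timp3 value can be set against those of its relatives, which removes an offset common to all probe sets of that array. Timp3 minus Timp2 was 0.45 to 1.20 in normoosmotic and 1.73 to 2.95 in hypoosmotic samples, and Timp3 minus Timp4 was 1.95 to 3.81 and 3.92 to 4.97, so in these differences the groups did not overlap. The shift in Timp3 exceeded that of Timp2 by 1.53 (95% interval 0.80 to 2.26) and that of Timp4 by 1.41 (0.30 to 2.53). Against Timp1 the excess was 0.51 with an interval of −0.10 to 1.13, and the groups overlapped. Timp3 had been picked with its change known, so a larger shift than in its relatives was fixed by that choice. Timp4 was dim and flat in both groups, so Timp3 minus Timp4 largely repeats the Timp3 values. These differences describe the arrays, without a test.

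**Figure D3:**
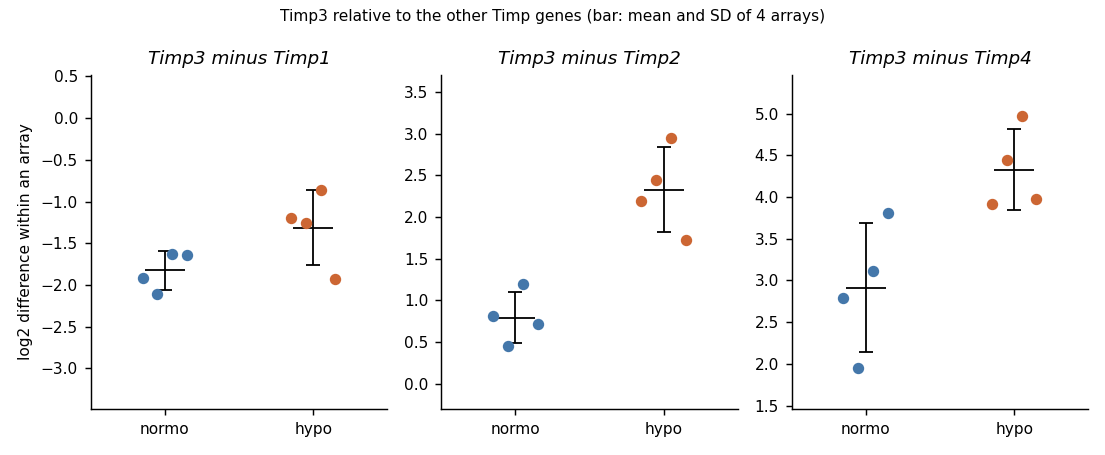
Timp3 minus Timp1, Timp2 or Timp4 within each array (y axis, log2 units) in the 4 normoosmotic (blue) and 4 hypoosmotic (orange) samples, with the mean and SD. For Timp2 and Timp4 the groups are separate, and for Timp1 hypoosmotic replicate 4, at −1.93, lies among the normoosmotic values.

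Serpinb2 (probe set 10763367) was dim in both groups and had the largest change of the 8. It read 1.92, 2.04, 1.87 and 2.82 in normoosmotic and 3.18, 3.92, 3.24 and 4.50 in hypoosmotic samples. The groups were 0.36 apart, and replicate 4 was the highest in each. The means of 2.16 ± 0.44 and 3.71 ± 0.62 (SD, n = 4 each) differ by 1.55 with an interval of 0.95 to 2.15 (limma, adjusted p = 0.0147). The mean over all arrays was at percentile 20.5 of the 14506 genes, where differences are compressed and the normoosmotic values may be background. The call was lost with the clock covariate (adjusted p = 0.0506), without normoosmotic replicate 1 (0.0508) and when hypoosmotic replicate 2 was dropped (0.0633).

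Serpinb2 lies in a cluster of clade B serpin genes, and its nearest neighbours in the RefSeq gene table are Serpinb7 and Serpinb10. Their log2 changes were −0.01 for Serpinb7 (adjusted p = 0.986) and 0.15 for Serpinb10 (0.601). Serpinb10 was dim, at 2.09 ± 0.14 and 2.24 ± 0.09 (SD, n = 4 each). Of the 13 other clade B serpins measured, 0 were called (1.98% of all genes were). By limma 0 had an unadjusted p under 0.05, against 14.6% of all genes, and their median change was 0.08. They ran from −0.20 for Serpinb6b to 0.23 for Serpinb1a, and those with the smallest p were Serpinb11 at 0.20 and Serpinb12 at −0.19.

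Timp1, Timp3 and Timp4 lie inside the synapsin genes Syn1, Syn3 and Syn2 in the RefSeq gene table, an arrangement known across mammals. Synapsins coat synaptic vesicles and are chiefly neuronal. The host genes were dim, at 3.66 ± 0.29, 3.28 ± 0.14 and 3.54 ± 0.19 (SD, n = 4 each) for Syn1, Syn2 and Syn3 in normoosmotic samples. None of the 3 was called by limma, with changes of 0.30 (adjusted p = 0.438), 0.08 (0.813) and 0.05 (0.929), and 0 had an unadjusted p under 0.05. Syn3, whose gene contains Timp3, ranged from 3.21 to 3.76 in hypoosmotic samples and from 3.26 to 3.69 in normoosmotic ones.

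Of the activators, Plau, the urokinase gene, read 4.71, 4.48, 4.34 and 5.21 in normoosmotic and 4.87, 5.68, 5.38 and 5.08 in hypoosmotic samples. The groups overlapped through normoosmotic replicate 4 alone, which was above hypoosmotic replicates 1 and 4. The change of 0.57 ± 0.20 (SE) did not pass over all genes (limma, adjusted p = 0.190), and it was 0.74 without that array (0.0664). Plat, the tissue-type activator, read 6.13, 5.93, 6.84 and 6.34 against 6.20, 6.67, 6.34 and 6.72. Its groups overlapped almost fully, with a change of 0.17 and an interval of −0.23 to 0.57.

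Plaur, the receptor through which urokinase acts at the cell surface, read 6.69, 6.72, 6.95 and 6.90 in normoosmotic and 6.29, 6.40, 6.39 and 6.55 in hypoosmotic samples. All hypoosmotic values lay below all normoosmotic ones, by 0.14 at the nearest pair. The means of 6.82 ± 0.13 and 6.41 ± 0.11 (SD, n = 4 each) differ by −0.41, with an interval of −0.65 to −0.16, which is 1.33-fold lower (limma, adjusted p = 0.0840). It did not pass in any of 17 alternatives, whose adjusted p-values ran from 0.0585 to 0.240. The difference kept its sign in all of them, between −0.46 and −0.36. So the receptor and its ligand Plau had changes of opposite sign, neither of them called.

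The start regions of the 3 called genes, and of Plaur, which was not called but whose groups did not overlap, are printed to show how unlike they are. They come from RefSeq on the GRCr8 build, cover the 250 bases before the gene's annotated start, and read 5′ to 3′ on the gene's own strand. Capitals mark every match on either strand to the AP-1 motif TGANTCA, the CRE core TGACG, the box TATAAA, the Sp1 box GGGCGG and the NF-kappaB motif, and the matches do not overlap one another. Timp3 is at chr7:19459559-19459808 (minus strand), Timp1 at chrX:3771123-3771372 (minus), Serpinb2 at chr13:24055771-24056020 (plus) and Plaur at chr1:89181113-89181362 (plus).
Timp3: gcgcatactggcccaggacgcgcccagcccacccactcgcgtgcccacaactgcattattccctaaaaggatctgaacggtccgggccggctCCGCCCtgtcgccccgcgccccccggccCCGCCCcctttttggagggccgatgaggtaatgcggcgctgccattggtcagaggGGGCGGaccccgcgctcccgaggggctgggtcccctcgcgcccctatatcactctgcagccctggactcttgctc
Timp1: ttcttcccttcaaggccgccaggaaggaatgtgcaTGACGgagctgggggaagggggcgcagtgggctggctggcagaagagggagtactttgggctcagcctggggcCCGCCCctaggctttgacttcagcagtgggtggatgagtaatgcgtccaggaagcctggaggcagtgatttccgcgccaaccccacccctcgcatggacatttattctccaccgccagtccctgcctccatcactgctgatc
Serpinb2: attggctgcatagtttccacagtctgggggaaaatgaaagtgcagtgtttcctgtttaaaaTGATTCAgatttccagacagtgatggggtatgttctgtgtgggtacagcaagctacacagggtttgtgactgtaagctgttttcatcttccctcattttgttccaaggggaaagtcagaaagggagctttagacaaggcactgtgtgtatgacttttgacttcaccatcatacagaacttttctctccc
Plaur: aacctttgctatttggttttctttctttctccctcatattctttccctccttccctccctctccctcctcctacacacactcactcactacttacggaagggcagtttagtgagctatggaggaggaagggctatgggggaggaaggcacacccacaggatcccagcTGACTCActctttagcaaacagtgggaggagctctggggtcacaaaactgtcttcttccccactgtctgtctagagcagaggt

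The Timp3 sequence is 69.6% G and C with 23 CpG pairs and holds 3 Sp1 boxes, at −158 to −153, −130 to −125 and −75 to −70 from the start. An Sp1 box is found in 30.5% of the 33469 start regions of that length. Serpinb2 is its opposite, with 43.2% G and C and 0 CpG pairs, against medians of 51.2% and 5 over all regions. Serpinb2, higher in hypoosmotic samples, and Plaur, lower in them, each hold 1 AP-1 match, at −189 to −183 and at −83 to −77, and 6.34% of all regions hold one. Timp1 has 1 CRE core, at −215 to −211, a motif found in 18.2% of regions, and 1 Sp1 box. A CRE core is also present in Timp2, at −179 to −175, and in Plau, at −193 to −189, neither of them called. Of the 7 members in the table, which has no entry for Plat, Sp1 boxes occur in Timp1, Timp2, Timp3 and Plau. Plau, which was not called, holds 3 Sp1 boxes as Timp3 does. Timp2, also not called, is 72% G and C with 27 CpG pairs, both above the Timp3 values. TATAAA and the NF-kappaB motif, present in 12.9% and 6.33% of regions, occur in 0 of the 7. A match is only a string of letters, and no binding was measured here.

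Markers of the cells that make Timps in liver were read in the same arrays. The 13 markers of stellate cells and portal fibroblasts averaged 5.72 to 6.36 per array in the normoosmotic and 5.77 to 6.07 in the hypoosmotic group. Without normoosmotic replicate 4 the normoosmotic range was 5.72 to 5.88, and 3 of the 4 hypoosmotic averages (5.91, 5.95 and 6.07) lay above it. By limma 0 of the 13 were called (1.98% of all genes were), and 1 had an unadjusted p under 0.05 (14.6% of all genes). In a list this short a count of 0 shows little. The median change was −0.01. The highest marker average, 6.36, was that of normoosmotic replicate 4, which also had the highest average of 15 matrix genes, at 7.02 against 6.42 to 6.57 in the other 3. Both lists hold Dcn, Lum, Col1a1 and Col3a1, so their averages are not separate observations. Normoosmotic replicate 4 was also the highest normoosmotic array for macrophage markers, at 6.90 against 6.41 to 6.63, and for endothelial markers, at 7.62 against 7.23 to 7.37. That array held the highest normoosmotic value in 5 of the 8 members: Timp1, Timp2, Timp3, Serpinb2 and Plau. Without it, the changes of Timp1 and Timp3 were 1.14 (limma, adjusted p = 0.00942) and 1.72 (0.00848), and that of Serpinb2 was 1.77 (0.00899). In the hypoosmotic group, replicate 3 had the highest stellate average, 6.07, and the highest matrix average. Without that array Timp1 and Timp3 lost their calls, with changes of 0.88 (limma, adjusted p = 0.0890) and 1.24 (0.0538). Serpinb2 kept its call there (limma, adjusted p = 0.0213). Hypoosmotic replicate 2 was the highest of its group for macrophage and endothelial markers, and without it 0 members were called.

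The average of the 13 stellate and fibroblast markers was also used as a covariate, added after seeing the data. The changes were then 0.99 for Timp1 (limma, adjusted p = 0.0110), 1.54 for Timp3 (0.00138) and 1.56 for Serpinb2 (0.0170), all 3 called. That average was 6.36 in normoosmotic replicate 4 and 5.72 to 6.07 in the other arrays, so 1 array weighs heavily in this fit. No other marker list was used as a covariate, and the part of cell composition was not tested. In bulk RNA, more cells of a type and more RNA per cell cannot be told apart. The matrix genes themselves included 0 calls and 0 with an unadjusted p under 0.05 (limma) among 15 measured. Of all genes 1.98% were called and 14.6% had such a p. The matrix list had a median change of −0.02 and a range from −0.16 for Lum, a collagen-binding proteoglycan, to 0.28 for the elastin gene Eln. The collagen gene Col1a1 had a log2 change of −0.04 and the fibronectin gene Fn1 one of 0.20 (limma, adjusted p = 0.449).

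**Figure D4:**
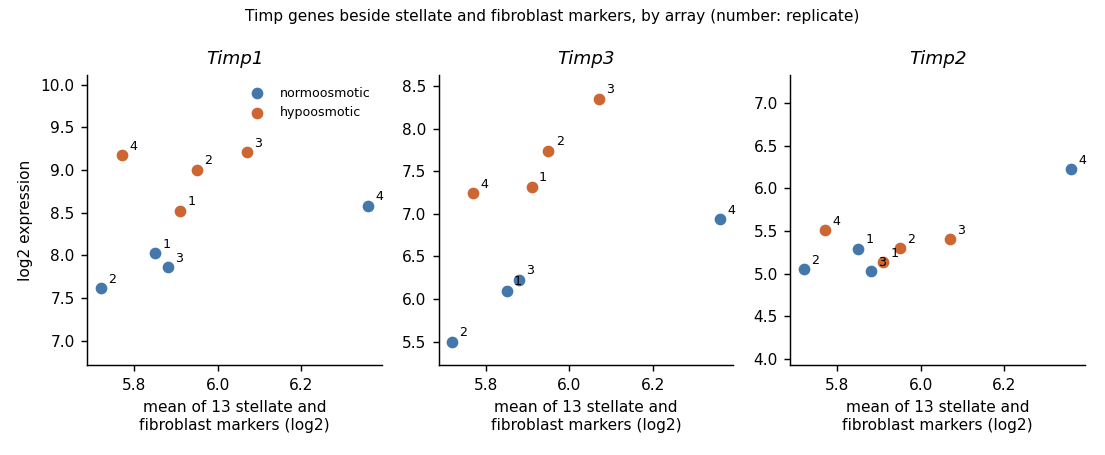
Log2 expression of Timp1, Timp3 and Timp2 (y axis) against the mean of 13 stellate and fibroblast markers in the same array (x axis, log2 units); blue is normoosmotic, orange hypoosmotic, numbers are replicates. Normoosmotic replicate 4 stands at 6.36 on the marker axis, and the hypoosmotic points of Timp1 and Timp3 lie at marker values of 5.77 to 6.07, against 5.72 to 5.88 in the other 3 normoosmotic arrays.

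Other cell types were read in the same way. Of the marker lists for macrophages (10 measured), endothelium (7), smooth muscle (6), bile duct (6), mesothelium (4), neutrophils (8) and lymphocytes (7), 0 genes were called, and 3 in all had an unadjusted p under 0.05 (limma). Of all genes 1.98% were called and 14.6% had such a p. The macrophage average was 6.41 to 6.90 in normoosmotic and 6.47 to 7.10 in hypoosmotic samples, that of endothelium 7.23 to 7.62 and 7.28 to 7.55, and that of bile duct 4.03 to 4.51 and 4.14 to 4.38. For smooth muscle it was 4.57 to 5.10 and 4.76 to 5.13, for mesothelium 4.25 to 4.76 and 4.62 to 4.77, for neutrophils 2.55 to 2.87 and 2.59 to 2.90, and for lymphocytes 3.15 to 3.33 and 3.06 to 3.45. Each of these ranges overlaps its partner. Of the 10 macrophage markers, 9 had a change above 0, as had 8507 of all 14506 genes. The medians were 0.12 for the macrophage list and 0.04 for all genes. The part of these cell types in the member changes was not tested. Of the hepatocyte markers 1 was called, the amino acid enzyme gene Tat, which fell by 0.76.

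Around the activators, the abundant plasma proteins of the cascade had small changes. Plasminogen itself, Plg, was at 11.60 ± 0.05 in normoosmotic samples and had a change of −0.03 (SE 0.10; limma, adjusted p = 0.920). Serpinf2, the main plasmin inhibitor of plasma, had a change of 0.09 (adjusted p = 0.770). Of 24 cascade genes measured, 1 was called higher and 0 lower (1.98% of all genes were called), and 5 had an unadjusted p under 0.05 (limma, 14.6% of all genes), all 5 higher. The median change was 0.03, and the lowest was Hrg, a plasma protein that binds plasminogen, at −0.12.

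The called gene of that list was Lrp1, the endocytic receptor that clears complexes of activators with their inhibitors and also takes up Timp3. Lrp1 read 7.59, 7.96, 7.48 and 7.65 in normoosmotic and 8.15, 8.09, 8.26 and 8.46 in hypoosmotic samples. All hypoosmotic values lay above the normoosmotic ones, and Lrp1 rose by 0.57 ± 0.13 (SE; limma, adjusted p = 0.0444). The call is a marginal one: of the 8 arrays, it was kept only without normoosmotic replicate 2 (adjusted p = 0.0300). It kept the call in 6 of 17 alternatives and lost it without normoosmotic replicates 1 (0.117), 3 (0.146) and 4 (0.0839), and on dropping hypoosmotic replicate 1 (0.0728), 2 (0.0834), 3 (0.0982) or 4 (0.0759). The call was also lost with the stellate marker covariate (0.0586), after subtraction of array medians (0.0648), with the replicate block (0.0697) and with the clock covariate (0.133). Next by p were Igf2r, a receptor that binds plasminogen and the Plaur protein, at 0.43 (adjusted p = 0.0971), and Anxa2, a cell-surface docking protein for plasminogen and Plat, at 0.70 (0.107). Anxa2 read 7.22 in normoosmotic replicate 4 against 6.21 to 6.30 in the other 3.

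The measured proteases that Timps inhibit gave 0 calls. Of all genes 1.98% were called and 14.6% had an unadjusted p under 0.05 (limma). In lists this short 0 calls is near that share, and nothing is read from it. Of 22 genes in the list of matrix metalloproteinases and their membrane inhibitor Reck, 2 had an unadjusted p under 0.05 (limma), with a median change of 0.06: Mmp15 at 0.43 (adjusted p = 0.255) and Mmp21 at −0.28 (0.303). Mmp14, the membrane-bound collagenase that works with Timp2, had a change of 0.10 and Reck one of 0.09. Of 28 listed Adam and Adamts proteases 13 were not measured, Adam10 among them. Of the 15 measured, 1 had an unadjusted p under 0.05 (limma), Adamts3 at −0.68 (adjusted p = 0.139), and the median was −0.02. Adamts1 had a change of −0.26 and Adam15, the highest, one of 0.19. Adam17, the sheddase that Timp3 blocks, was at 7.16 ± 0.19 in normoosmotic samples and had a change of −0.01 with an interval of −0.29 to 0.27.

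Among 19 surface proteins that bind Timps or are shed by Adam17, 2 were called higher and 0 lower, where 1.98% of all genes were called. An unadjusted p under 0.05 (limma) was found in 7, of which 4 were higher, where 14.6% of all genes had one. The list's median was 0.06. Cx3cl1, a membrane-anchored chemokine released by Adam17 and Adam10, read 4.29, 4.58, 4.91 and 4.34 in normoosmotic and 5.26, 5.85, 5.64 and 6.36 in hypoosmotic samples. Its groups were fully apart, it rose by 1.25 ± 0.21 (SE; adjusted p = 0.00936), and it kept the call in all 17 alternatives. The other was Lrp1. Vcam1, an adhesion molecule shed by the same protease, had a change of −0.68 (adjusted p = 0.0574), and the growth factor gene Ereg one of 0.45 (0.136).

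**Figure D5:**
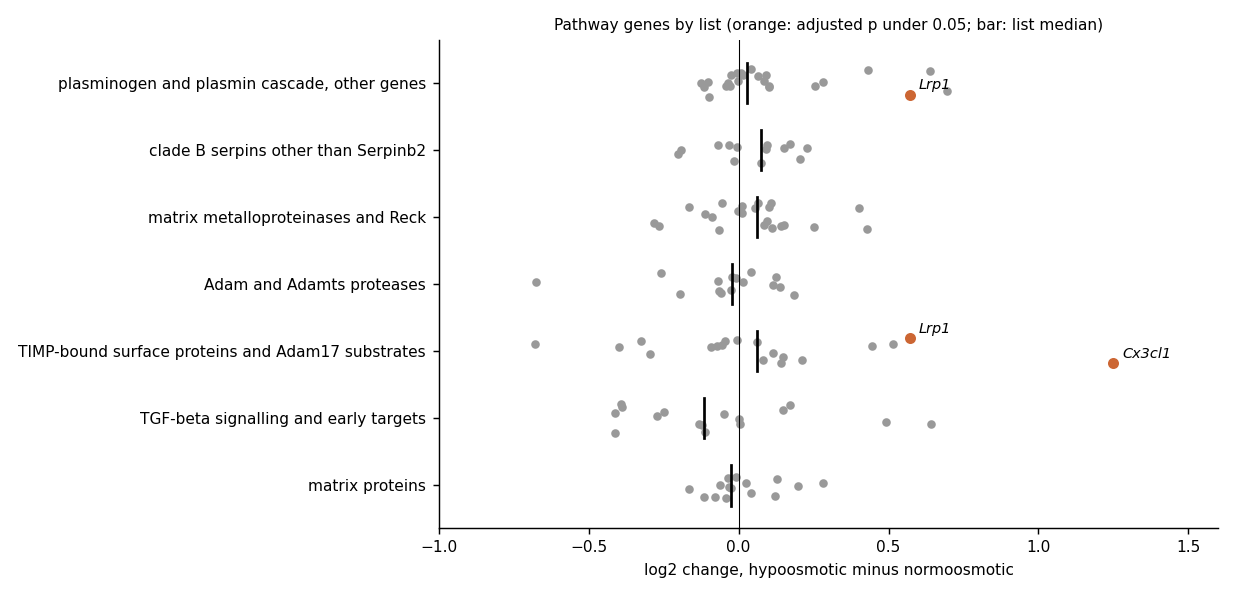
Log2 change, hypoosmotic minus normoosmotic (x axis), of the measured genes of 7 lists around the members; each point is a gene, orange where the adjusted p from limma was under 0.05, and the black bar is the list median. Most points lie within 0.3 of 0, and the orange ones are Lrp1, which stands in 2 lists, and Cx3cl1.

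TGF-beta is a known inducer of Timp1, Timp3 and matrix genes. Of 16 genes of its signalling and early targets, 0 were called, where 1.98% of all genes were called. An unadjusted p under 0.05 was seen in 7 (limma), of which 2 were higher and 5 lower, against 14.6% of all genes, with a list median of −0.12. The receptor gene Tgfbr1 had a change of −0.41 (adjusted p = 0.119), the corepressor gene Tgif1 one of −0.39 (0.118), the target Id1 one of 0.49 (0.0814) and the inhibitor Smad6 one of 0.64 (0.233).

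Likeness of pattern over the 8 arrays was searched with accession-like and uncharacterised gene symbols left out. The genes found most like Timp3 were Tbc1d7 (Pearson r = 0.978), Sidt2 (0.966) and Senp8 (0.963), with changes of 0.19, 0.31 and 0.44. Iws1 was the most opposed (r = −0.955, log2 change −0.51). The genes most like Serpinb2 were Cox17 (0.986), Wfdc2 (0.983) and Hddc2 (0.975), and Prpf19 was the most opposed (−0.962). Of these 8 genes only Iws1 was called (limma, adjusted p = 0.0340). The nearest gene was Cmtr1 for Timp1 (0.985), Btd for Timp2 (0.975), Cetn1 for Timp4 (0.976), Adipor1 for Plat (0.978) and Oasl2 for Plau (0.968). For Plaur it was Klf6 (0.981), a zinc finger factor gene that fell by 0.78 (adjusted p = 0.0129). These values have no p, rest on 8 arrays and on the best match among all genes searched, and mix the difference between groups with the spread within them. With group means removed, r was 0.96 for Tbc1d7 with Timp3, 0.97 for Cox17 with Serpinb2 and 0.90 for Klf6 with Plaur. These genes were picked by their r over the same arrays, so the latter values are no separate check of likeness.

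Among the members themselves, the same measure with group means removed was 0.77 for Timp1 with Timp3, 0.88 for Timp1 with Timp2 and 0.65 for Timp2 with Timp3, while Timp3 with Serpinb2 gave 0.07. The last pair, the largest rises of the 8, thus differed between groups alike but not within them: Timp3 was highest in hypoosmotic replicate 3, at 8.35, and Serpinb2 in hypoosmotic replicate 4, at 4.50. Hypoosmotic replicate 1 held the lowest value of its group in 6 of the 8 members.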

How the data were processed

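The authors' deposited log2 expression values of 27596 probe sets on 8 arrays were used unchanged. That they are log2 was read from their range, 0.88 to 13.26; array medians were 4.05 to 4.16. Per the submitters' processing notes, Transcriptome Analysis Console 4.0 was used. For summarisation, background step, normalization and genome build no method was found in the labels.

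A single gene symbol was given for 15310 probe sets and several for 323, and 11963 are unnamed here. Names were updated by gene ID with RefSeq (GRCr8; 15279 matched), and the probe set with the highest mean per gene gave 14506 genes. Promoter sequences are from RefSeq, and 7 of the 8 members matched.

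The contrast was fitted with limma 3.58.1 under R 4.3.3 (lmFit, eBayes, two-sided), with Benjamini-Hochberg adjustment over all 14506 genes and calls under 0.05. On simulated data of 4 against 4 arrays with these 14506 genes, recovery was 37.4% for an added change of 0.5 log2 units, 98.8% for 1 and 99.6% for 1.5, and 5.69% of calls were unchanged genes. The simulated noise was drawn with variances that limma had already shrunk, so it lacks the most extreme spreads of single genes. It was independent between genes, without spread that genes of an array share, and the rates are averages over randomly drawn genes. They need not hold for a single member: Timp1, with a change of 0.96, kept its call in 2 of 8 fits with 1 array left out. Intervals of differences within an array use the pooled SD of 4 and 4.

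Members and lists were chosen with earlier results of these data known. Named genes were the members, 6 measured pathway genes, each list's called genes, 2 more with the smallest p and its extremes, and the genes most like a member. The search for likeness left out accession-like and uncharacterised symbols. Other genes are named as neighbours or examples. Alternatives tried were removal of the dimmest 25% of genes, quantile normalization, median subtraction, other priors and weights, a replicate block, the mean over probe sets, a clock score (Bmal1 and Npas2 averaged, less the average of Dbp and Per3), a stellate marker covariate and leaving out each array.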

Additional observations from a re-analysis of the deposited data

Results flagged for a closer look

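Single arrays stood far from the other 3 of their group in 7 of 126 groups of 4 examined (63 named genes), where chance gives about 1 in 20. No member was among them. Anxa2 read 7.22 in normoosmotic replicate 4, with the next value at 6.30, and Sidt2, a gene patterned like Timp3, read 8.05 there with the next at 7.87. Sidt2 also read 8.42 in hypoosmotic replicate 3, the array with the highest Timp3, with the next at 8.17. Col3a1, a fibrillar collagen gene, read 7.85 in that array against 7.52 to 7.55 in the other hypoosmotic samples. Mmp14 read 7.46 in normoosmotic replicate 1, below the next value of 7.97, and Reck 4.03 in hypoosmotic replicate 1, below 4.22. Serpinb11, dim throughout, read 1.63 in normoosmotic replicate 1 with the next at 1.34.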

How the results depend on the processing

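Of the 287 genes called, 258 to 287 were shared under the dim filter, quantile normalization, median subtraction, the trended and robust prior, array weights and the mean over probe sets, and 216 under the replicate block, where 256 were called. With the clock score as a covariate 92 genes were called (89 shared) and 0 members, and on leaving out 1 array 81 to 365 genes and 0 to 3 members. With the stellate covariate 265 genes and 3 members were called. Median subtraction gave 56 higher and 219 lower calls and quantile normalization 113 and 222, against 81 and 206. Of the 8 members, 6 kept the sign of their change in all alternatives run; Timp4 was −0.01 after quantile normalization, and Timp2 ran from −0.18 to 0.21 on leaving out 1 array (0.21 without normoosmotic replicate 4, 0.01 without hypoosmotic replicate 1). Timp3 kept its call in 11 of 17 alternatives, Timp1 in 10 of 17 and Serpinb2, which the dim filter removes, in 13 of 16; the causes were not tested. Same-numbered samples deviated together weakly (correlations 0.05, 0.03, 0.08 and 0.17). Differently numbered samples were not compared and the labels are silent, so whether the numbers pair samples cannot be told. With the replicate number as a block, 3 members were called (limma), with adjusted p-values of 0.0248 for Timp1, 0.0290 for Timp3 and 0.00112 for Serpinb2. Depth does not apply to arrays; the low signal of Serpinb2 and Timp4 limits what their values can show.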

Other observations

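Further genes of the plasmin and shedding lists, chosen after their values were seen, had an unadjusted p under 0.05 without a call (limma). A2m, a broad protease inhibitor of rat plasma and an acute phase gene in that species, had a log2 change of 0.64 ± 0.24 (SE; adjusted p = 0.229). Eno1, a glycolytic enzyme that can bind plasminogen at the cell surface, had one of 0.26 ± 0.11 (0.321). Of the tumour necrosis factor axis that Adam17 acts on, Tnf itself had a change of −0.40 ± 0.14 (adjusted p = 0.165) and its receptor gene Tnfrsf1b one of 0.52 ± 0.17 (0.146). Icam1, of the shedding list but without such a p, was at 10.00 ± 0.21 in normoosmotic samples (SD, n = 4). Its change was −0.01 (limma, adjusted p = 0.994).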
